A study of Mus musculus with 8 samples.

Results

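The transcripts described here are those of the 26S proteasome, the protease that breaks down ubiquitin-tagged proteins in the cytosol and nucleus. They were taken by symbol from the deposited gene table: protein-coding genes whose names begin with Psma, Psmb, Psmc or Psmd and a digit, without the immunoproteasome genes Psmb8, Psmb9 and Psmb10 and without pseudogenes. This gave 37 of the 56748 genes in the table. Of these, 16 belong to the core particle (Psma and Psmb) and 20 to the regulatory cap (Psmc and Psmd), among them 3 cap assembly chaperones that carry Psmd names. These 3 are counted with the subunits below, although they are not part of the finished proteasome. The remaining gene, Psmc3ip, encodes a meiotic recombination factor and no proteasome subunit, and is given apart.

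The proteasome is built from a barrel and a lid-bearing cap. The barrel, or core particle, stacks outer rings of alpha subunits, which gate the entrance, on inner rings of beta subunits, which hold the proteolytic sites of Psmb5, Psmb6 and Psmb7. The cap binds ubiquitin chains, removes them, unfolds the substrate with a ring of ATPases (Psmc1 to Psmc6) and threads it into the barrel. In liver the complex turns over short-lived regulators and misfolded secretory proteins, and mammalian cells that lack proteasome activity raise transcription of most subunits together through the factor NFE2L1.

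RNA was sequenced from the livers of mice labelled as having metabolic dysfunction-associated steatotic liver disease at 16 weeks. There were 4 libraries of the miR-93 knockout genotype (KO) and 4 of the wild-type genotype (WT), and both genotypes received a diet high in fat and high in fructose. The labels give no age, sex or strain and do not say whether the knockout was limited to the liver. Nor do they say whether each library is a different mouse, so the p-values below measure only the spread between these libraries, which may be technical. Log2 fold changes are KO over WT, given ± the standard error from edgeR's quasi-likelihood fit, and adjusted p is the Benjamini-Hochberg value over all 13204 genes tested, with a threshold of 0.05. Levels are CPM, counts scaled to library size, after TMM scaling, which sets the libraries to a common level for the bulk of genes. In bulk liver, fewer cells of a type and less RNA per cell cannot be told apart.

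The libraries differed in more than genotype. KO libraries held 9187279 to 10966019 counts and WT libraries 5085860 to 7451026. Mitochondrial genome transcripts took 8.08% to 15% of the counts in KO and 25.4% to 77.8% in WT, so genotype and this share cannot be told apart. WT replicate 4 stood at 77.8%, detected 14287 genes where the others detected 18412 to 20148, and is shown apart where it matters. Mir93, the deleted gene, had 0 counts in all 8 libraries, as did its cluster neighbours Mir25 and Mir106b, so these counts do not check the genotype label. All 8 hepatocyte markers were detected, with a sum of 41200 to 46900 CPM in KO and 46400 to 61000 CPM in WT. Of these markers 2 were called higher and 2 lower, where 10.4% of all tested genes were higher and 10.7% lower.

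The microRNA whose gene was deleted is shown with its seed, bases 2 to 8, in capitals, because seed pairing in the 3′ untranslated region is the usual route by which a microRNA lowers a transcript.
mmu-miR-93-5p: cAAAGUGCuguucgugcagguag
The sequence is from RefSeq (GRCm38.p6, chr5:138165574-138165596, minus strand). A DNA match to the seed reads GCACTTT. None of the 34 tested subunits held these letters in its longest annotated 3′ untranslated region, against 1687 of 11574 tested genes (14.6%). The regions of the subunits were short, with a median of 295 bases against 1146 for all tested genes, and this difference in length was not adjusted for. The shortest were those of Psmc5, Psmb3, Psmb6 and Psmb5, at 58, 59, 70 and 73 bases. The absence of a match says only that these letters are not in these regions.

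Proteasome subunit transcripts were higher in KO livers in part, with none lower. Of the 34 tested subunits 14 rose and none fell, and in 16 every KO library lay above every WT library. Across all tested genes 10.4% were called higher and 10.7% lower, 16.3% had every KO library above every WT library, and 14% had every KO library below. The median log2 fold change was 0.25 for the 14 tested core subunits and 0.49 for the 20 cap genes, against -0.01 for all tested genes, and 33 of the 34 point estimates were above 0. Of the core genes 4 rose (Psma5, Psma6, Psmb1 and Psmb4), and of the cap genes 10 rose (Psmc1, Psmc2, Psmc3, Psmd1, Psmd2, Psmd3, Psmd7, Psmd8, Psmd10 and Psmd13). With library size alone, 0 core genes and 1 cap gene were called higher. The counts were 0 and 4 with a replicate block, which pairs libraries by number. They were 3 of 14 and 4 of 19 with thinning to equal nuclear depth. Genes called higher among all tested genes were then 561 of 13204, 643 of 13204 and 739 of 9074, in the same order. The alternatives that cost single members their calls are given below.

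Without WT replicate 4, 6 of 14 core and 12 of 20 cap genes rose and none fell, where 17.8% of 13777 tested genes were called higher and 17.5% lower. All 14 earlier calls were kept, and Psma1, Psmb7, Psmd9 and Psmd14 joined them. The medians were then 0.14 for the core and 0.44 for the cap, and 11 core and 19 cap estimates were above 0, with Psma2 and Psmb5 now below it. Leaving out any other single library lowered the cap count, and lowered the core count except without WT replicate 1. The core count was 1 without KO replicate 1 and 0 without KO replicate 2, 3 or 4 or WT replicate 2. It was 2 without WT replicate 3 and 4 without WT replicate 1. The cap count ran from 7 to 9 over these libraries. The medians in these fits were 0.25 to 0.36 for the core and 0.45 to 0.58 for the cap. Genes called higher among all tested genes fell too, from 1369 to 1042, 760, 872 and 761 without KO replicates 1, 2, 3 and 4. Without WT replicates 1, 2 and 3 they were 1281, 858 and 1032. These fits tested 13179 to 13691 genes.

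**Figure D1:**
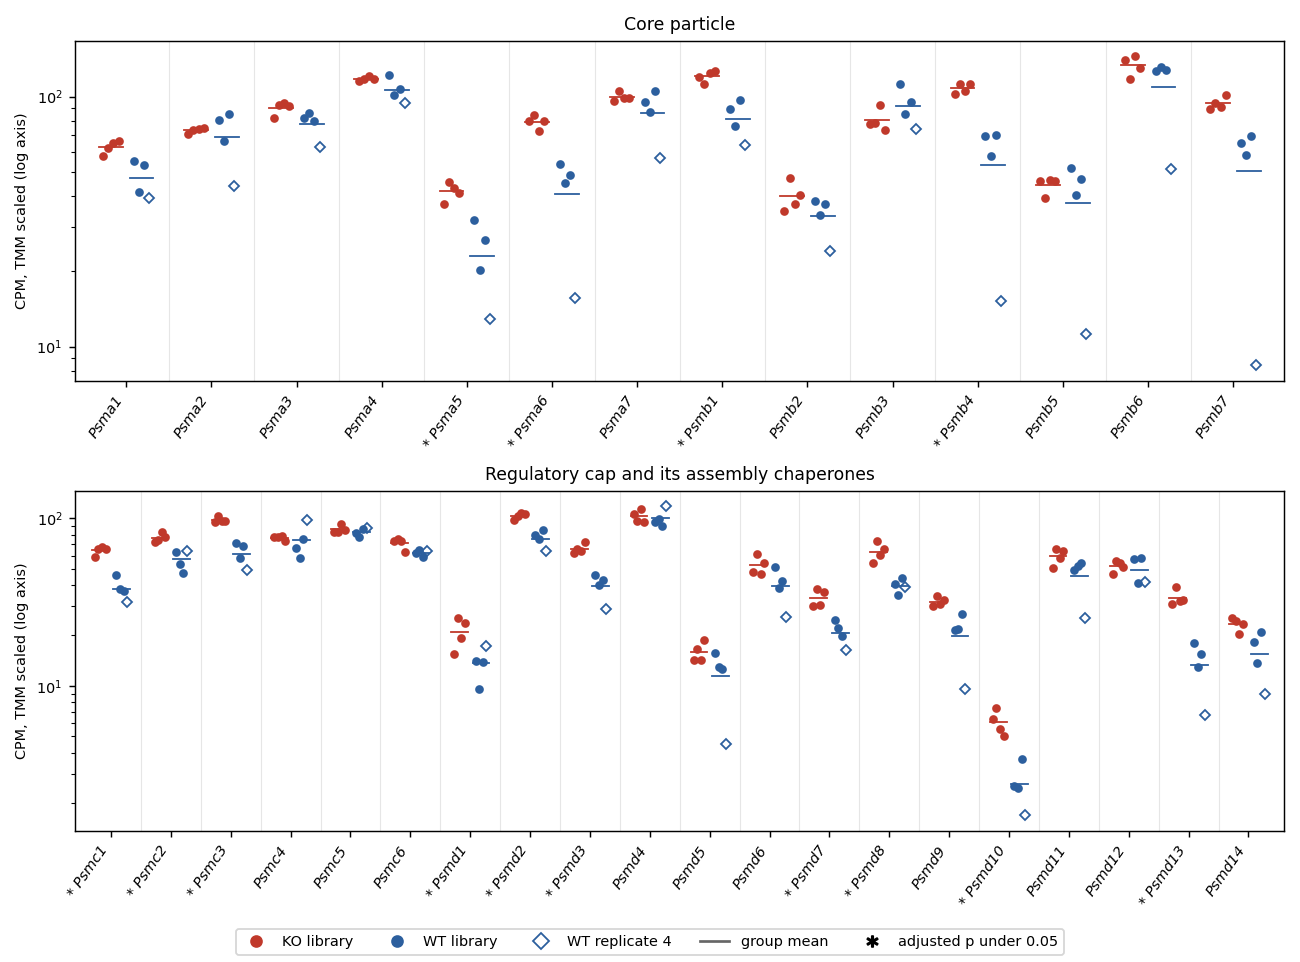
CPM after TMM scaling on a log axis for the 14 tested core genes (top) and the 20 cap genes (bottom), with each KO library (red) left of each WT library (blue), group means as bars and WT replicate 4 as an open diamond. Asterisks mark the 14 genes with an adjusted p under 0.05; for Psmb7, WT replicate 4 lies at 8.43 CPM and the other WT libraries at 58.4 to 69.3 CPM.

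The alpha ring came first in the core. Psma6, an alpha subunit, had 79.6, 84.2, 72.7 and 79.9 CPM in KO and 53.7, 44.9, 48.7 and 15.7 CPM in WT. Its groups did not overlap, and WT replicate 4 lay far under its group. The log2 fold change was 0.91 ± 0.26 (adjusted p = 0.0308), or 0.70 without that library. Psma5 had 37.1, 45.7, 42.9 and 41.2 CPM in KO and 32.0, 20.3, 26.7 and 12.9 CPM in WT. Every KO library was again the higher one, with a log2 fold change of 0.80 ± 0.21 (adjusted p = 0.0198). The other 5 tested alpha genes did not pass, with log2 fold changes of 0.07 for Psma2 to 0.40 for Psma1. Psma1 had 57.8 to 66.3 CPM in KO and 39.4 to 55.2 CPM in WT, so its groups did not overlap (adjusted p = 0.0685), and it passed with the DESeq2 Wald test (0.0261) and quality weights (0.0191). Psma8, the testis form of an alpha subunit, had 0.354 ± 0.254 CPM in KO and 0.305 ± 0.22 CPM in WT (SD, n = 4 per group) and was too low to test.

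In the beta ring, 2 of the 4 tested subunits without proteolytic sites rose, and no test set one subunit against another. Psmb4 had 102, 112, 105 and 112 CPM in KO and 69.5, 57.6, 70.1 and 15.2 CPM in WT. The log2 fold change of 0.98 ± 0.32 (adjusted p = 0.0499) was the largest of the core and stood at the edge of the threshold. Without WT replicate 4, whose value rests on 27 counts, it was 0.72. Psmb1 had 120, 112, 124 and 126 CPM in KO and 89.4, 76.1, 97.1 and 64.1 CPM in WT. Its groups did not overlap either (0.55 ± 0.15, adjusted p = 0.0233). Psmb2 (0.23 ± 0.16) and Psmb3 (-0.19 ± 0.15) did not pass, and Psmb3 was the only tested subunit with an estimate below 0, which read 0.32 with scaling by library size alone. Psmb11, the thymus-specific beta subunit, had 1 count in each of KO replicates 2 and 3 and none elsewhere.

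None of the 3 catalytic subunits passed the threshold. Psmb5, the chymotrypsin-like site and the target of proteasome inhibitors, had 45.9, 39.3, 46.4 and 46.0 CPM in KO and 51.9, 40.3, 46.6 and 11.2 CPM in WT. The groups overlapped (0.18 ± 0.30, 95% interval -0.47 to 0.83), and the estimate turned to -0.05 without WT replicate 4. Psmb6, the caspase-like site, had 140, 118, 145 and 130 CPM in KO and 127, 131, 128 and 51.2 CPM in WT. Apart from WT replicate 4 the WT libraries lay within the range of the KO libraries (0.27 ± 0.24, 95% interval -0.27 to 0.81, or 0.06 without that library). Psmb7, the trypsin-like site, had 89.3, 94.5, 90.4 and 101 CPM in KO and 65.0, 58.4, 69.3 and 8.43 CPM in WT. Every KO library lay above every WT library, yet the low value of WT replicate 4, from 15 counts, widened the spread so that 0.85 ± 0.39 did not pass (adjusted p = 0.142). Without that library the change was smaller and did pass (0.55, adjusted p = 0.000105).

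The core calls rested on several libraries at once. Psmb4 was not called when any single library other than WT replicate 4 was left out (adjusted p 0.0507 to 0.12). Psma6 was not called without any 1 KO library or without WT replicate 2 or 3 (0.0522 to 0.0867), Psmb1 without any 1 KO library or WT replicate 2 (0.0514 to 0.076), and Psma5 without KO replicate 2, 3 or 4 or WT replicate 2 (0.0561 to 0.0736). The log2 fold changes of these 4 genes in these fits, each without 1 library, stayed between 0.52 and 1.13 where the call was lost. All 4 calls were also lost with the replicate block (adjusted p 0.0541 to 0.084) and with library size alone (0.119 to 0.156). Psmb1 lost its call with thinning too (0.0688). Psmb4 lost its call with no filter (0.143), with a filter on mean CPM (0.0506) and with mitochondrial genes left out (0.0508).

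**Figure D2:**
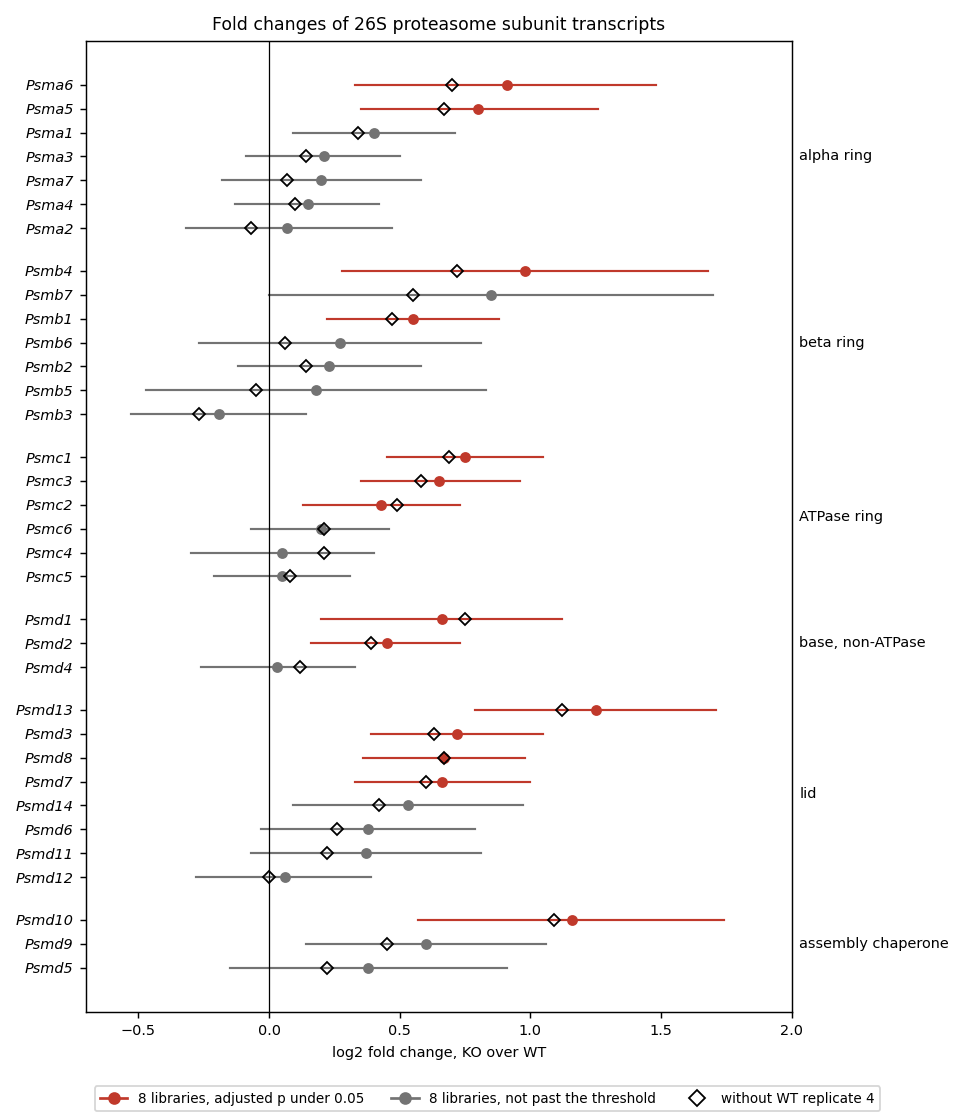
Log2 fold change, KO over WT, of the 34 tested genes by role, with 95% intervals of the 8-library fit (circles and lines) and the estimate without WT replicate 4 (open diamonds). Red marks an adjusted p under 0.05; Psmd13 is the highest at 1.25 and Psmb3 the lowest at -0.19.

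In the cap, the ATPase ring split into 3 genes that rose and 3 that did not pass. Psmc1 had 58.9, 65.9, 67.7 and 65.5 CPM in KO and 45.8, 37.8, 36.9 and 31.5 CPM in WT. The groups did not overlap, and the log2 fold change was 0.75 ± 0.14 (adjusted p = 0.00344). Psmc3 had 95.5, 103, 96.1 and 96.1 CPM in KO and 71.0, 58.3, 68.0 and 49.5 CPM in WT (0.65 ± 0.14, adjusted p = 0.00798). Psmc2 had 72.3, 74.0, 82.7 and 77.3 CPM in KO and 63.2, 53.7, 47.3 and 64.1 CPM in WT. This was the smallest of the called changes (0.43 ± 0.14, adjusted p = 0.0453), and it was not called without any 1 KO library or WT replicate 2 or 3 (adjusted p 0.0681 to 0.125). Psmc4, Psmc5 and Psmc6 had log2 fold changes of 0.05, 0.05 and 0.20, and the 95% interval of Psmc5, -0.21 to 0.31, was the narrowest of these. No test set one ATPase against another.

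The non-ATPase subunits of the base scaffold the ring and hold ubiquitin receptors. Psmd2, a large scaffold, had 98.1, 104, 107 and 106 CPM in KO and 79.1, 75.6, 85.0 and 63.5 CPM in WT (0.45 ± 0.13, adjusted p = 0.0313). Psmd1, the other scaffold, had 15.6, 25.3, 19.2 and 23.9 CPM in KO and 14.1, 9.62, 13.8 and 17.4 CPM in WT. It was the 1 called gene whose groups overlapped, through WT replicate 4 (0.66 ± 0.21, adjusted p = 0.0459). Both calls rested on several libraries at once. That of Psmd2 was lost without any 1 KO library or WT replicate 2 (adjusted p 0.0504 to 0.0896). That of Psmd1 was lost without KO replicate 2, 3 or 4 or WT replicate 1, 2 or 3 (0.067 to 0.145). The log2 fold changes in these fits stayed at 0.44 to 0.48 for Psmd2 and 0.51 to 0.71 for Psmd1. Psmd4, a ubiquitin receptor of the cap, had 106, 97.0, 114 and 94.8 CPM in KO and 95.6, 99.6, 90.0 and 118 CPM in WT. Its groups were interleaved, and the log2 fold change of 0.03 ± 0.14 had a 95% interval of -0.26 to 0.33.

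The lid, which carries the deubiquitinase, held the largest rise. Psmd13, a lid scaffold subunit, had 30.8, 39.2, 32.1 and 32.7 CPM in KO and 18.1, 12.9, 15.6 and 6.75 CPM in WT. The lowest KO library was well above the highest WT library, and the log2 fold change was 1.25 ± 0.21, or 2.38-fold (adjusted p = 0.00197), and 1.12 without WT replicate 4. Psmd3 had 62.4, 65.5, 64.1 and 71.9 CPM in KO and 46.0, 40.3, 42.8 and 28.7 CPM in WT (0.72 ± 0.15, adjusted p = 0.00664). Psmd8 had 53.9, 73.1, 60.6 and 65.6 CPM in KO and 40.8, 34.8, 44.3 and 38.8 CPM in WT (0.67 ± 0.14, adjusted p = 0.00685). In both genes, lid scaffold subunits too, the groups stood apart. Psmd7, the partner of the deubiquitinase, had 30, 37.8, 30.4 and 36.3 CPM in KO and 24.6, 22.1, 19.9 and 16.3 CPM in WT (0.66 ± 0.15, adjusted p = 0.0108). Psmd14, the deubiquitinase itself, had 25.5, 24.4, 20.4 and 23.3 CPM in KO and 18.3, 13.7, 20.9 and 9 CPM in WT. Its groups overlapped, with KO replicate 3 just below WT replicate 3, and 0.53 ± 0.20 did not pass (adjusted p = 0.0837), while without WT replicate 4 it did (0.42, adjusted p = 0.0255), as with the DESeq2 Wald test over 8 libraries (0.0472). Psmd6 (0.38), Psmd11 (0.37) and Psmd12 (0.06) did not pass.

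The cap assembly chaperones guide the base together and leave before the proteasome is complete. Psmd10, also called gankyrin and described as an oncoprotein in liver cancer, had 6.35, 7.4, 5.55 and 5.02 CPM in KO and 2.53, 2.47, 3.64 and 1.69 CPM in WT. Each KO library was above each WT library (1.16 ± 0.26, adjusted p = 0.0112), although WT replicate 4 held only 3 counts of it. Psmd9 had 29.8, 34.2, 30.7 and 32.7 CPM in KO and 21.6, 21.9, 26.9 and 9.56 CPM in WT. It did not pass edgeR's test (0.60 ± 0.21, adjusted p = 0.0629). It passed without WT replicate 3 or 4 (adjusted p 0.0042 to 0.0464) and, over 8 libraries, with the DESeq2 Wald test (0.0219), limma-voom (0.0465), quality weights (0.00932) and no filter (0.0367). Psmd5 was at 0.38 ± 0.24 and did not pass. Psmc3ip, the recombination factor outside the complex, had 10.8 ± 1.78 CPM in KO and 13.0 ± 3.71 CPM in WT (SD, n = 4 per group; -0.31 ± 0.21, adjusted p = 0.306).

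Of the 14 calls, those of Psmc1, Psmc3, Psmd3, Psmd13 and Psmd10 were each lost in 1 of the 19 alternatives. For the first 4 that was scaling by library size alone (adjusted p 0.0516 to 0.118), and for Psmd10, which was tested in 18 of them, the replicate block (0.0521). Psmd7 and Psmd8 lost their calls in 3 alternatives (library size alone, the replicate block and thinning) and the other 7 genes in 6 to 12. Psmc2, Psmd1 and Psmd2, among these 7, lost theirs in the same 3 and without single libraries. Psmc2 and Psmd2 lost theirs with no filter too (adjusted p 0.0599 and 0.0571). No call was reversed. With library size alone, which moves the median of all genes from -0.01 to 0.54, the core median was 0.74 and the cap median 1.03, or 0.20 and 0.49 above that of all genes, and no core gene and 1 cap gene, Psmd10, were called.

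**Figure D3:**
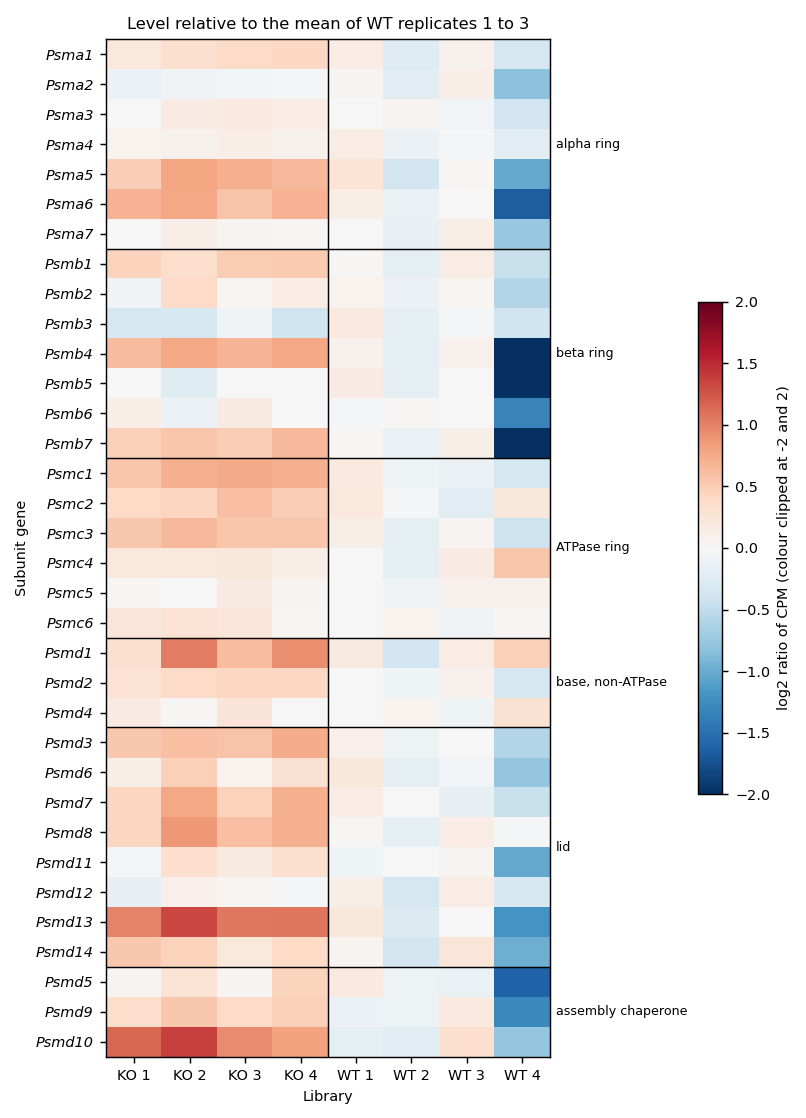
Log2 ratio of each library's CPM to the mean of WT replicates 1 to 3 for the 34 tested genes (rows, by role) in the KO libraries (left) and WT libraries (right), with colours clipped at -2 and 2. WT replicate 4 is the lowest WT library for all 14 core genes, and its ratio to the other WT libraries falls as low as 0.131 for Psmb7.

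WT replicate 4 was the lowest WT library for all 14 tested core genes and for 12 of the 20 cap genes. Its level relative to the mean of the other 3 WT libraries had a median of 0.58 over the core genes, with a range of 0.131 (Psmb7) to 0.853 (Psma4). Over the cap genes the median was 0.768, and the range ran from 0.327 (Psmd5) to 1.48 (Psmc4). Among the 9097 tested genes within the same range of mean CPM, this ratio had a median of 0.942 and quartiles of 0.592 and 1.41. Subunits of the same ring therefore fell apart in this library: Psmb3 kept 74.2 CPM while Psmb4 had 15.2 CPM. The part of this library's mitochondrial share in these values was not tested.

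**Figure D4:**
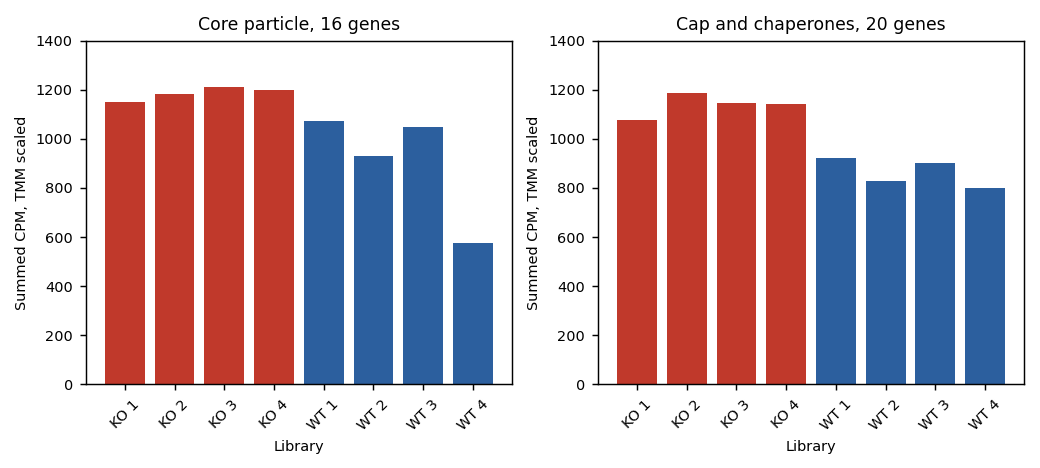
Summed CPM of the 16 core genes (left) and the 20 cap genes (right) in each library, KO in red and WT in blue, with the axis from 0. The KO libraries lie at 1148.5 to 1210.8 (core) and 1077.4 to 1185.5 (cap), above all WT libraries in both panels.

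Added over the genes, core transcripts summed to 1185.1 ± 27.1 CPM in KO and 906.9 ± 231 CPM in WT, and cap transcripts to 1137.9 ± 44.8 CPM in KO and 864.1 ± 58.2 CPM in WT (SD, n = 4 per group). The KO to WT ratio of these sums was 1.31 for the core and 1.32 for the cap. Without WT replicate 4 it was 1.16 for the core, with 1017.8 ± 77.1 CPM in WT, and 1.29 for the cap, with 885 ± 49.5 CPM in WT (SD, n = 3). The sums in KO libraries spread less than those in WT libraries, and no test was made of sums over chosen members.

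Levels of different subunits were compared per kilobase of annotated exon, since long transcripts collect more counts. In KO libraries the 14 tested core genes ran from 25.2 (Psma2) to 167 (Psmb6) CPM per kilobase with a median of 59.8, and in WT libraries from 18.6 (Psma5) to 137 (Psmb6) with a median of 40.3. Cap genes ran lower, from 3.64 (Psmd5) to 65.3 (Psmc5) CPM per kilobase in KO and from 1.76 (Psmd10) to 63.3 (Psmc5) in WT. Their medians were 29.7 in KO and 18.5 in WT. Psmd5 and Psmd10 are assembly chaperones, and the lowest cap gene apart from the chaperones was Psmd1, at 6.75 in KO and 4.43 in WT. The order at the top was the same in both genotypes, with Psmb6 the highest core gene and Psmc5 the highest cap gene. Among these tested genes, levels were up to 6.63-fold apart in the KO core and 7.37-fold in the WT core, while the untested Psma8 had 0.209 CPM per kilobase in KO and 0.18 in WT. The summed cap level per kilobase relative to the core was 0.594, 0.634, 0.597 and 0.604 in KO and 0.533, 0.551, 0.538 and 0.938 in WT. The KO libraries lay above the first 3 WT libraries and below WT replicate 4. The exon lengths are those of GENCODE M21 and may differ from the transcripts present in these livers.

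Promoters were read for 29 of the 36 subunit genes from RefSeq (GRCm38.p6), as windows of 250 bases before to 50 bases after the annotated start. They were searched on both strands for the core of the antioxidant response element, TGACNNNGC, to which NFE2L1 and NFE2L2 bind, and for the CCAAT box, a general promoter element. The first was found in 5 of 29 genes (17.2%), against 12.4% of all 32851 windows. None of the 10 called genes with a window held it, and 5 of the 18 not called did (27.8%). Positions count from the annotated start. The 3 matches nearest to it are shown with the motif in capitals, because Psmb5 and Psmb6, which hold it close to the start, are catalytic subunits whose transcripts did not pass the threshold.
Psmb5, position -47 (chr14:54618023-54618052, minus strand): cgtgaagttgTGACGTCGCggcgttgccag
Psmb6, position -9 (chr11:70525338-70525367, plus strand): ctaaagagagTGACGGAGCgctttacgacg
Psmd9, position -31 (chr5:123228149-123228178, plus strand): atctagccggTGACCCCGCccacttccaag
The other matches, in Psmc6 and Psmd12, began at positions -227 and -247. The CCAAT box was found in 12 of the 29 genes (41.4%), against 37.4% of all windows, and in none of the 5 with the other motif. Of the 10 called genes with a window 4 held it (40%), near the 7 of 18 among those not called (38.9%). The matches of these 4 called genes are shown, at the match nearest the window's end, with no link to their rise drawn.
Psma6, position -29 (chr12:55384183-55384212, plus strand): ccactaggtgCCAATggaattcctgagggt
Psmc1, position -175 (chr12:100110017-100110046, plus strand): acatgtttaaCCAATccttgtaccaaaccg
Psmc2, position -28 (chr5:21785237-21785266, plus strand): cggcctcgcgCCAATgcgcgcggccgccta
Psmd10, position -24, on the opposite strand (chrX:140956716-140956745, minus strand): tagtactttgATTGGtcgccggaacaggaa
A match is a description of letters and not a site of binding, and its absence says nothing about a factor.

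**Figure D5:**
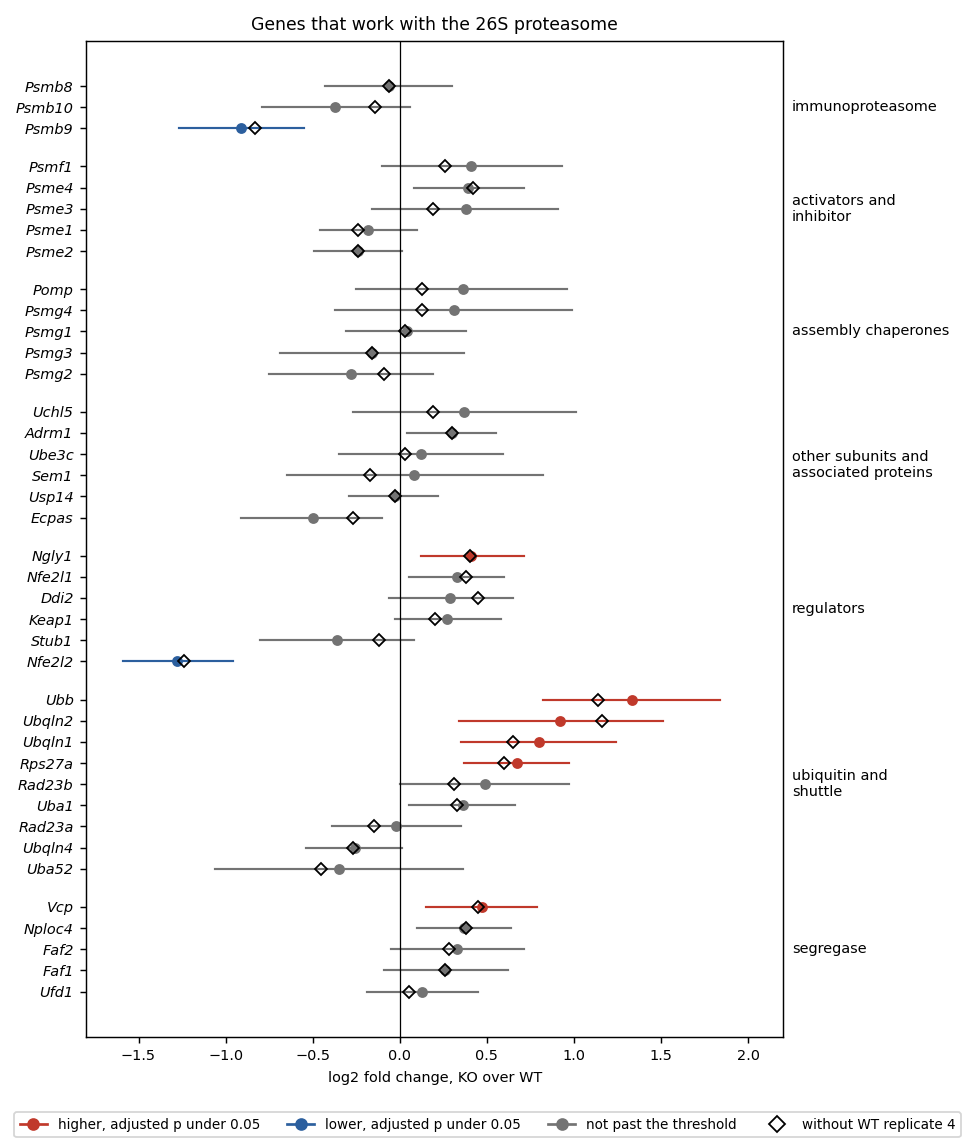
Log2 fold change, KO over WT, of genes that work with the proteasome, by list, with 95% intervals (8 libraries) and the estimate without WT replicate 4 (open diamonds). Red marks a rise and blue a fall with an adjusted p under 0.05: Ubb is the highest at 1.33 and Nfe2l2 the lowest at -1.28.

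The genes around the proteasome gave a mixed picture. The immunoproteasome subunits replace the catalytic ones after interferon. Psmb9, the counterpart of Psmb6, had 10.9, 9.51, 13.2 and 9.89 CPM in KO and 21.7, 18.8, 18.1 and 24.7 CPM in WT. It fell (-0.91 ± 0.16, adjusted p = 0.00312), with every KO library below every WT library. Psmb8, the counterpart of Psmb5, had 25.2 ± 2.74 CPM in KO and 26.4 ± 5.26 CPM in WT, and Psmb10, that of Psmb7, had 40.2 ± 2.38 CPM in KO and 53.1 ± 17.6 CPM in WT (SD, n = 4 per group). Neither passed (-0.06 ± 0.17 and -0.37 ± 0.19). T and NK cell markers summed to 4.89 to 6.70 CPM in KO and 8.8 to 17.8 CPM in WT. Of their 4 tested genes 3 were lower. B cell markers summed to 11.7 to 75.1 CPM in KO and 58.5 to 503 CPM in WT, with 6 of 7 lower. Kupffer cell markers went the other way, with 6 of 10 higher and none lower. Across all tested genes 10.4% were higher and 10.7% lower. The part of these cells in the fall of Psmb9 was not tested.

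None of the 5 activator and inhibitor genes (Psme1 to Psme4 and Psmf1) and none of the 5 core assembly chaperones (Psmg1 to Psmg4 and Pomp) passed the threshold, with medians of 0.38 and 0.04. The same held for 6 subunits and associated proteins outside the symbol rule (median 0.10), among them the ubiquitin receptor Adrm1 (0.30 ± 0.12, adjusted p = 0.0888) and Ecpas, a protein that clamps core and cap (-0.50 ± 0.18, adjusted p = 0.0753). Without WT replicate 4, Psme4 and Adrm1 rose (0.42 and 0.30) and Ecpas fell (-0.27). The shares over all tested genes were 10.4% higher and 10.7% lower with 8 libraries, and 17.8% and 17.5% without that library.

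Of 6 regulators of proteasome genes, 1 rose and 1 fell, which is near the 10.4% higher and 10.7% lower of all tested genes. Without WT replicate 4, 3 rose and 1 fell, where 17.8% of all tested genes were higher and 17.5% lower. Nfe2l1, which drives subunit transcription when proteasome activity is short, had 76.2, 88.6, 78.4 and 85 CPM in KO and 66.8, 58.3, 65.7 and 72.0 CPM in WT. The groups did not overlap, yet 0.33 ± 0.13 did not pass edgeR's test (adjusted p = 0.0863). It passed without WT replicate 4 (0.38, adjusted p = 0.00469) and, over 8 libraries, with the DESeq2 Wald test (0.0212) and quality weights (0.00691). Ngly1, the glycanase that processes the NFE2L1 protein, had 24.2 ± 2.74 CPM in KO and 18 ± 1.07 CPM in WT (SD, n = 4 per group). It rose by a small margin (0.41 ± 0.13, adjusted p = 0.049), and the call was lost in 13 of 19 alternatives. These were the omission of any single library other than WT replicate 4 (adjusted p 0.0539 to 0.147) and 6 others, among them limma-voom (0.058) and thinning to equal nuclear depth, where the log2 fold change was 0.18 (0.697). Nfe2l2, the oxidative stress factor that can also raise subunit genes, had 57.6, 44.3, 45 and 51.6 CPM in KO and 102, 133, 120 and 127 CPM in WT. It fell (-1.28 ± 0.14, adjusted p = 0.000146), with every KO library below every WT library. The protease Ddi2 (0.29), Keap1 (0.27) and the ubiquitin ligase Stub1 (-0.36) did not pass, and Ddi2 passed without WT replicate 4 (0.45, adjusted p = 0.00107).

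Genes that supply and deliver ubiquitin rose in 4 of 10 cases with none lower, where 10.4% of all tested genes were higher and 10.7% lower. Ubb, a polyubiquitin gene, had 439, 445, 498 and 439 CPM in KO and 235, 188, 201 and 94.5 CPM in WT (1.33 ± 0.23, adjusted p = 0.00256). The groups stood far apart. Rps27a, which encodes ubiquitin fused to a ribosomal protein, had 184 ± 14.4 CPM in KO and 115 ± 14.5 CPM in WT (SD, n = 4 per group; 0.67 ± 0.14, adjusted p = 0.00655). The shuttle factors Ubqln1 (0.80 ± 0.20, adjusted p = 0.0181) and Ubqln2 (0.92 ± 0.27, adjusted p = 0.0313) rose too, the Ubqln2 groups overlapping through WT replicate 4. The call of Ubqln1 was lost without KO replicate 2 or 4 (adjusted p 0.0561 to 0.0637), with library size alone (0.123) and with the replicate block (0.0642). That of Ubqln2 was lost without any single library other than WT replicate 4 (adjusted p 0.0532 to 0.112), with the block (0.0697) and with thinning (0.114). Without WT replicate 4, 6 of the 10 rose, with Uba1 and Rad23b added, where 17.8% of all tested genes were higher. Of 5 segregase genes, whose products pull tagged proteins out of complexes, Vcp rose (0.47 ± 0.15, adjusted p = 0.042) and 4 did not pass. Its call was lost without KO replicate 2, 3 or 4 or WT replicate 2 or 3 (adjusted p 0.08 to 0.125), with library size alone (0.152), with no filter (0.0534), with the replicate block (0.154) and with thinning (0.0693), and Nploc4 joined it without WT replicate 4 (0.38).

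Marker transcripts of other liver cells differed in part between the genotypes. Of the sums that follow, only those of sinusoidal endothelial markers did not overlap between KO and WT. Across all tested genes 10.4% were called higher and 10.7% lower. Sinusoidal endothelial markers summed to 106 to 211 CPM in KO and 62.8 to 84.9 CPM in WT, with 6 of 8 higher. Kupffer cell markers summed to 162 to 195 CPM in KO and 47.6 to 212 CPM in WT, with 6 of 10 higher, and stellate markers to 81.3 to 90 CPM in KO and 70.6 to 171 CPM in WT, with 3 of 6 lower. Neutrophil markers stayed at 3.07 to 4.21 CPM in KO and 1.51 to 4.5 CPM in WT, with Ly6g and Mpo at 0 in every library. The proteasome is present in all of these cells, and the part of these shifts in the subunit values was not tested.

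The exons of 9 subunit genes overlap those of another annotated gene, on the opposite strand in most cases, and the sources used here do not say whether the counting used strand. Psmd13 overlaps Sirt3 (79.3 ± 2.42 CPM in KO and 85.9 ± 9.04 CPM in WT, SD, n = 4 per group), which had a log2 fold change of -0.11 ± 0.13. Psmb7 overlaps Nek6, which had 105 ± 3.53 CPM in KO and 68.1 ± 24.6 CPM in WT (SD, n = 4 per group; 0.60 ± 0.24, adjusted p = 0.0916), and the part of shared reads in the values of Psmb7 was not tested. Psmc3 overlaps Slc39a13, at 0.13 ± 0.21. Psmd3 overlaps Gm12356, at 1.46 ± 0.48, whose mean level was low (1.62 CPM in KO and 0.479 CPM in WT). Psma4 overlaps AY074887, at 0.86 ± 0.38 (adjusted p = 0.129). The part of shared reads in the values of these subunits was not tested either. Subunit genes also have processed pseudogene copies, and the 4 that carry Psmb names held 1 count between them over all libraries.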

How the data were processed

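Liver RNA from 4 KO and 4 WT libraries was sequenced by the submitters. The authors deposited raw counts per Ensembl gene, with no normalization, and the submitters' processing notes name cutadapt 4.2, STAR 2.7.10a and mm39. The counting tool, its annotation, its use of strand and its treatment of reads with several matches are not given in the sources used here.

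Symbols, biotypes, exon lengths and 3′ untranslated regions came from GENCODE M21 (GRCm38), which named 52125 of the 56748 IDs; no coordinates of the counted genes are given. Promoter and microRNA sequences came from RefSeq tables of GRCm38.p6. Counts were tested in R 4.3.3 with edgeR 4.0.16 (robust quasi-likelihood F test, two-sided, TMM factors, genes kept by filterByExpr on genotype, 13204 of 25937 detected genes, Benjamini-Hochberg adjustment over all of them, threshold 0.05, no covariate). The CPM in the text use the same factors. The limit that a listed 0 allows, 3 counts, is 0.219 to 0.455 CPM in 7 libraries and 1.69 CPM in WT replicate 4, for counting error only. Same-numbered KO and WT libraries had correlations of their deviations from the group means of -0.224, -0.036, -0.069 and -0.109. No pairing by number was seen, but so few values cannot exclude one. No 2 libraries of a group agreed within sampling noise (chi-square per degree of freedom 2.77 to 297). The steps were tested on simulated data.

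Alternatives were DESeq2 1.42.0 size factors, upper-quartile factors, library size alone, other filters, the DESeq2 Wald test, limma-voom (limma 3.58.1), the same with quality weights, a replicate block, mitochondrial genes left out, each library thinned to 1131446 nuclear counts by keeping every read with the same chance, and each library left out in turn. Named genes were the catalytic subunits, Psmd4, Psmd14, the called members, the 3 core and 5 cap members with the largest changes and, for each further list, the smallest p-values; other members were named after their values were seen. Members, lists and tests were chosen with earlier results of these data known. The values of 1 gene of the ubiquitin list are not reported here; the list's counts include it.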

Additional observations from a re-analysis of the deposited data

Results flagged for a closer look

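In groups of 4 libraries, a sample was marked when its gap to the nearest other sample, over the range of the group, passed Dixon's 95% critical value. This held for 3 of 74 groups checked, where chance marks about 1 in 20. Psmb6 in WT replicate 4 was at 51.2 CPM, with the other WT libraries at 127 to 131 CPM. Psmb5 in KO replicate 2 was at 39.3 CPM, with the other KO libraries at 45.9 to 46.4 CPM. Psmc3 in KO replicate 2 was at 103 CPM, with the other KO libraries at 95.5 to 96.1 CPM. The 2 marks in KO replicate 2 come from groups with a narrow range.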

How the results depend on the processing

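No core or cap gene was called lower in any of the 19 alternatives, and the core and cap medians stayed above 0. With library size alone, 0 core genes, 1 cap gene and 685 genes in all were called. With the replicate block, which pairs libraries by number, the counts were 0, 4 and 1267. Whether the numbers pair the libraries is not known. Thinning to equal nuclear depth called 3 core genes, 4 cap genes and 1572 of 9074 genes in all, with Psmd10 too low to test. Quality weights called 4950 genes. Leaving out 1 library in turn gave 0 to 6 core genes, 7 to 12 cap genes and 1489 to 4853 genes in all, against 4, 10 and 2777. No named call was reversed. Of the genes around the proteasome, Psmb9, Nfe2l2 and Ubb lost their calls only with library size alone (adjusted p 0.529, 0.25 and 0.0597). Rps27a lost its call there (0.116) and with the replicate block (0.0517). The cause of these changes was not tested. Counts in WT replicate 4 were few for Psmd10, Psmd5, Psmd13 and Psmb7, at 3, 8, 12 and 15.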
